A study of Mus musculus with 39 samples.

Results

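All 18 libraries of alpha-synuclein-loaded microglia were set against all 18 libraries of the acceptor microglia kept in culture with them, with time as a covariate, 36 of the 39 libraries in the series. The pooled comparison was read for changes of less than 2-fold, which single times with 3 against 3 libraries resolve poorly. The cells were primary microglia of newborn C57BL/6 mice, shaken off an astrocyte layer. Donors, seeded in 24-well plates at typically 250000 cells each, were offered alpha-synuclein carrying the dye Atto-488 at 1 µM over 14 h. Acceptors were seeded at typically 6000000 cells in a T25 flask, received no alpha-synuclein directly, and were stained with a violet cell tracer for 15 min. The populations were then kept together without touching for 15, 30, 60, 150 or 300 min, and libraries at 0 min precede that step. The label letters TW are not defined in the sources used here. The remaining 3 libraries, a control at 0 min, are used below as a reference level and entered no test. Alpha-synuclein, dye, vessel and seeding density differ together between the populations and cannot be told apart.

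Microglia are the macrophages of the brain, and they take up and degrade extracellular protein such as alpha-synuclein, the main component of Lewy bodies in Parkinson's disease. Taken-up protein reaches the lysosome, a compartment acidified by the vacuolar proton pump (V-ATPase), and misfolded protein in the cytosol is marked with ubiquitin and cut by the proteasome. Such machines are built from many subunits, each with a gene of its own. The scale of the large changes was set by Lcn2, which encodes an iron-sequestering acute-phase protein. Its level was 833, 1060 and 1310 CPM (counts scaled to a common library total; lowest, median and highest donor library) against 0.123, 0.979 and 3.74 CPM in acceptors. Cx3cr1, the fractalkine receptor of resting microglia, had 4.93, 9.71 and 14.6 CPM in donors and 114, 243 and 640 CPM in acceptors. Every donor library lay beyond every acceptor library for both genes, with fitted log2 changes of 9.59 ± 0.29 (SE, n = 18 per population) and −5.04 ± 0.23.

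The libraries held 8753743 to 15910662 reads in donors and 8649169 to 14743934 in acceptors. Values are 3′ tag counts, 12947 of the 16144 genes in the table were tested, and levels are CPM scaled by edgeR's TMM factors. Those factors were 0.836 to 0.927 in donors and 0.907 to 1.25 in acceptors. They matter for small changes, because scaling by total counts instead moved the median of all genes from −0.08 to −0.41 log2 units, a shift of −0.33. Acceptors at 300 min replicate 2 stood apart, with fewer reads, and fewer genes detected (11951), than any other library. The title numbers of the libraries fall into 3 consecutive runs of 13, each with 1 library of every group, called library-number runs here. Acceptors at 300 min replicate 2, with the lowest TMM factor of the acceptors (0.907), lies in run 1. Its part in the values given for run 1 was not tested. What a run stands for, and whether the 3 libraries of a group are separate cultures, was not stated in the labels. P-values therefore measure the spread between libraries, which may be technical. Where the libraries of a population within a run share a culture, these p-values are too small.

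Small differences were widespread. A gene is called where edgeR's quasi-likelihood test gave a p under 0.05 after Benjamini-Hochberg adjustment across the whole table. The pooled comparison called 8113 genes (62.7% of those tested), 3804 higher in donors (29.4%) and 4309 lower (33.3%). Of these, 3302 (25.5%) changed by at least 2-fold and 4811 (37.2%) by less: 2373 higher (18.3%) and 2438 lower (18.8%). Leaving out acceptors at 300 min replicate 2 gave 8357 calls, with 2516 higher and 2508 lower under 2-fold. The changes nearest to the 2-fold limit were Selenoh at −0.9999 and Kcmf1 at 1.0001 log2 units, so the limit divides a continuous range.

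Pooling resolved what single times did not. At 1 time, 3 against 3 libraries called 2876 to 2988 genes, which was 23%, 22.3%, 22.8%, 22.2%, 22.3% and 23.1% of those tested at 0, 15, 30, 60, 150 and 300 min. Calls under 2-fold numbered 900 to 990, or 7.24%, 6.95%, 7.29%, 6.95%, 7.13% and 7.65%. The median standard error was 0.38 log2 units at a single time and 0.15 in the pooled fit, and the smallest called change was 0.37 to 0.43 against 0.13. Among genes with a pooled change between 0.25 and 0.5 log2 units, 1753 of 2732 (64.2%) were called by pooling and a mean of 141 at a single time. Between 0.5 and 0.75 units the numbers were 1623 of 2058 (78.9%) and 450. Of the 4811 genes called under 2-fold, 2295 (17.7% of all tested) were called at none of the 6 times. With 1 fit per time to its 6 libraries that number was 2562, and in the limma setting with an estimated correlation it was 873.

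**Figure D1:**
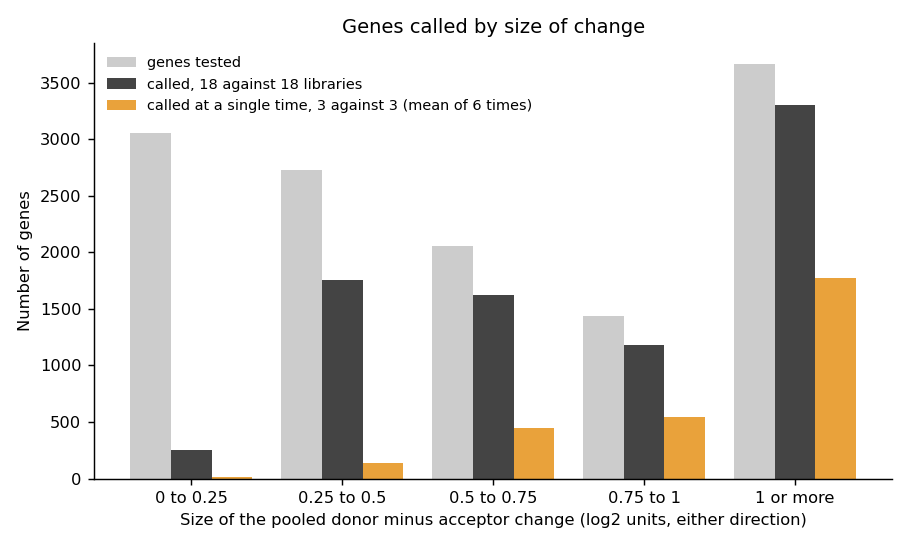
Number of genes (vertical axis) in each range of the pooled donor minus acceptor change in log2 units of either direction (horizontal axis). Grey bars are all genes tested, dark bars the genes called with 18 against 18 libraries, and orange bars the mean number called at a single time. In the range 0.25 to 0.5 the dark bar stands at 1753 of 2732 genes and the orange bar at 141.

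The small calls depended on how libraries were scaled and on what counts as a replicate. With total counts, 1344 genes were higher (10.4%) and 3510 lower (27.1%) by less than 2-fold. Of the 2373 small calls higher with TMM, 924 were also higher with total counts, 1436 were not called and 13 were lower. All 2438 lower calls were also lower with total counts. Limma with an estimated correlation of 0.224 among libraries of a population and run called 3326 of the 4811 (69.1%) the same way. After counts were summed over times, 3 against 3 sums called 2690 (55.9%) the same way.

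A stricter set, called stable here, was therefore kept for the genes described below. It held calls under 2-fold whose 95% interval lay within 1 log2 unit of 0 and that were called the same way with total counts, with a replicate block and by limma with the estimated correlation. It held 1599 genes (12.4%), 502 higher in donors (3.88%) and 1097 lower (8.47%). The total-count condition removed higher genes only, from 1785 to 502, and the limma condition removed lower genes only, from 1692 to 1097, so the 2 numbers say nothing of the balance of directions. The median size was 0.59 log2 units with a median standard error of 0.09. With counts summed per run 1172 of the 1599 (73.3%) were still called, and within run 1 alone 1028 (64.3%). Of the 1599, 1548 had the same sign at all 6 times and 1524 in all 3 runs. Since the set was chosen on these libraries, both numbers are a description. Donor and acceptor libraries did not overlap at all for 136 of them (8.51%), against 9.27% of all genes tested. Of the stable genes, 766 (47.9%) lay among the 3237 most abundant genes tested, and 0 lay among the 3237 least abundant, where the median standard error was 0.56.

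The control libraries at 0 min gave an outside reference. Their mean level was nearer to that of acceptors than of donors for 481 of the 502 stable higher genes (95.8%) and for 975 of the 1097 stable lower genes (88.9%). Over all genes tested the share was 76.6%, and over genes called at least 2-fold it was 91%. The control mean lay between those of the populations for 65.1% of the stable higher and 61% of the stable lower genes. That share was 45.3% over all genes tested and 60.8% over genes called at least 2-fold.

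The stable gene with the smallest adjusted p was Plin3 (chr17:56277476-56292873, minus strand, GRCm38), which encodes a perilipin that coats lipid droplets and also takes part in endosomal transport. Plin3 had 160, 202 and 224 CPM (lowest, median, highest) in donors and 91.8, 107 and 136 CPM in acceptors. Every donor library was above every acceptor library, and the median of the control was 111 CPM. The log2 change was 0.87 ± 0.06 (fold 1.82, n = 18 per population, edgeR's quasi-likelihood test, Benjamini-Hochberg adjusted p = 2.92e-15), and 0.54 with total counts. The other 9 of the 10 leading higher genes changed by 0.76 to 0.84 log2 units, and for each of the 10 the populations did not overlap and all 6 single times were called.

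Rad21 (chr15:51962240-51991747, minus strand), a subunit of the cohesin ring that holds sister chromatids together and shapes chromatin loops, had 111, 126 and 140 CPM in donors and 60.4, 73.2 and 85.7 CPM in acceptors. Its log2 change was 0.76 ± 0.06, with 0.79, 0.87 and 0.68 in the 3 runs. Sirt2, a cytosolic deacetylase of tubulin and other proteins, had 158, 188 and 217 CPM in donors and 76.9, 106 and 132 CPM in acceptors, a log2 change of 0.81 ± 0.06. Eif4g2, a scaffold of cap-independent translation initiation, was the most abundant of the 10, with 819, 1040 and 1180 CPM in donors and 390, 595 and 676 CPM in acceptors. Its log2 change was 0.79 ± 0.07, and its values in the 3 runs were 1.10, 0.64 and 0.71. Also among the 10 were Ube2z, a ubiquitin-conjugating enzyme, at 0.81, Mgrn1, a ubiquitin ligase, at 0.80, and Atg12, the ubiquitin-like conjugate of autophagosome formation, at 0.84. The microtubule-associated Map7d1 changed by 0.82, Metap1, which removes the initiator methionine of new proteins, by 0.80, and Kansl3, a subunit of a histone acetyltransferase complex, by 0.79.

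Rptor (chr11:119602905-119899576, plus strand) was the leading lower gene. It encodes raptor, the scaffold of mTORC1, a kinase complex that acts at the lysosome surface in response to amino acids. Its level was 13.9, 16.7 and 21.4 CPM in donors and 24.6, 29.5 and 34.2 CPM in acceptors. The highest donor library stayed below the lowest acceptor library, but the control, at a median of 22.5 CPM, lay between the medians of the populations. The log2 change was −0.81 ± 0.07 (edgeR's quasi-likelihood test, Benjamini-Hochberg adjusted p = 2.37e-13).

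Ssrp1 (chr2:85037234-85047109, plus strand), a subunit of the histone chaperone FACT, had 40.8, 49.6 and 61.8 CPM in donors and 68.2, 82.4 and 96.6 CPM in acceptors, a log2 change of −0.73 ± 0.06. Stx16, a SNARE of transport from endosomes to the trans-Golgi network, had 25.7, 35.9 and 48.0 CPM in donors and 50.4, 61.1 and 78.1 CPM in acceptors, a change of −0.82 ± 0.07. Neither gene overlapped between the populations. The lipid kinase genes Pik3cd, the delta catalytic subunit of PI3K in leukocytes, and Pip5k1c, which makes phosphatidylinositol 4,5-bisphosphate, changed by −0.75 and −0.72. The other leading lower genes were Glb1, the lysosomal beta-galactosidase, at −0.78, Pes1, a ribosome assembly factor, at −0.80, Dcaf8, a substrate receptor of cullin ubiquitin ligases, at −0.80, the corepressor Ctbp2 at −0.71, and Fam89b at −0.72. Of the 10, Pik3cd, Glb1, Pes1 and Ctbp2 had donor libraries within the acceptor range, and all 10 were called at each of the 6 times.

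**Figure D2:**
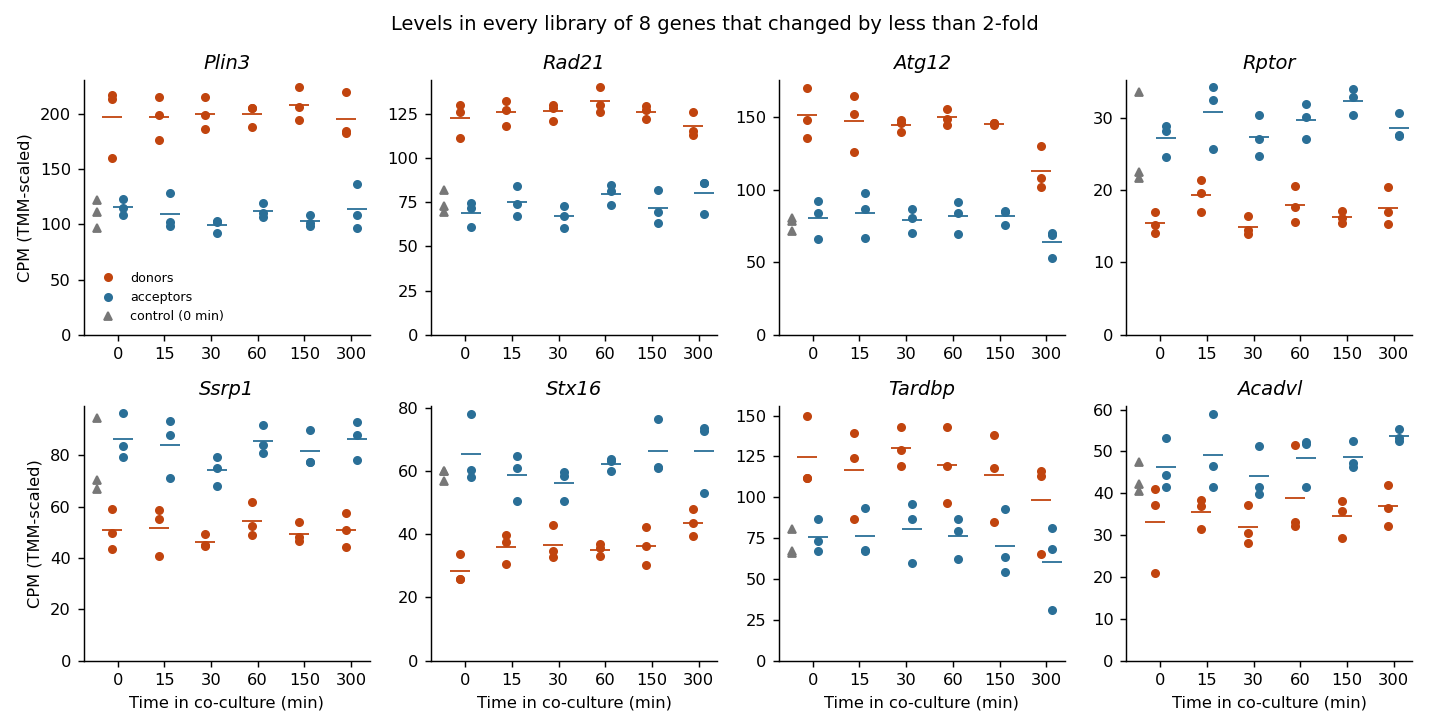
CPM scaled by TMM factors (vertical axis, from 0) against time in co-culture in min (horizontal axis) for 8 stable genes. Points are libraries, short bars the means of 3 libraries, and grey triangles the control at 0 min. Donors and acceptors are separate at every time for the first 6 genes, while for Tardbp and Acadvl, which no single time called, the lowest and highest libraries of the populations overlap.

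Of the stable set, 410 genes (3.17% of all tested) were called at none of the 6 times, 32 higher and 378 lower. Among the higher ones, Tardbp (chr4:148612382-148627019, minus strand), which encodes the RNA-binding protein TDP-43 that aggregates in motor neuron disease, had 65.4, 118 and 150 CPM in donors and 30.7, 70.9 and 96.0 CPM in acceptors. The ranges overlapped, and the log2 change was 0.67 ± 0.11 (edgeR's quasi-likelihood test, Benjamini-Hochberg adjusted p = 2.14e-06), with 1.27, 0.10 and 0.73 in the 3 runs. Run 2 alone thus gave almost no difference for Tardbp. Mkln1, a subunit of the CTLH ubiquitin ligase complex, changed by 0.54, Lin37, of the DREAM complex that represses cell cycle genes, by 0.65, the F-box protein gene Fbxo22 by 0.72, and Ubtd1 by 0.62.

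Among the lower ones, Acadvl (chr11:70010183-70015411, minus strand), the first enzyme of mitochondrial beta-oxidation of very long-chain fatty acids, had 21, 36.2 and 51.5 CPM in donors and 39.9, 49.4 and 59.0 CPM in acceptors. Its log2 change was −0.48 ± 0.08 (edgeR adjusted p = 1.81e-06) and ran from −0.54 to −0.40 across the 3 runs. Cct6a, a chaperonin subunit, changed by −0.41 ± 0.07 and Pno1, a ribosome assembly factor, by −0.67 ± 0.11. Hs6st1, which sulfates heparan sulfate, changed by −0.73 and Ttc7, a scaffold that brings phosphatidylinositol 4-kinase to the plasma membrane, by −0.65. The smallest changes in the stable set were those of Otud5, Hnrnpab, Hdgf, Slc25a3 and Fam168b, at −0.21 to −0.24 log2 units. Slc25a3, the mitochondrial phosphate carrier, illustrates their size: 403, 511 and 716 CPM in donors against 528, 594 and 765 CPM in acceptors, so that 12 of the 18 donor libraries lay below the lowest acceptor library and the ranges overlapped over the rest.

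Most subunits of the proteasome were called higher in donors. Of 33 proteasome subunit genes tested, 26 were called higher and 0 lower, where 29.4% and 33.3% of all genes were. The median log2 change was 0.44, against −0.08 for all genes tested, and 0.39, 0.30 and 0.72 in the 3 runs. With total counts, where 17.5% of all genes were higher and 50.2% lower, 14 were higher and 3 lower with a median of 0.11, which is 0.52 above the median of all genes on that scale. In the 20S core, 7 of 7 subunits of the beta ring, which holds the cutting sites, were called higher, and 5 of 7 of the alpha ring. In the 19S cap, 4 of 6 ATPases, which unfold substrates, and 10 of 13 other subunits were. Of the 33 subunits, 8 were stable.

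Psmd12 (chr11:107479484-107504362, plus strand), a scaffold subunit of the 19S lid, had 57.0, 80.8 and 104 CPM in donors and 37.2, 44.7 and 56.3 CPM in acceptors. All donor libraries were above all acceptor libraries, narrowly, with a log2 change of 0.79 ± 0.07 (edgeR adjusted p = 1.27e-11). Psmb5, the chymotrypsin-like catalytic subunit and the main target of bortezomib, had 194, 248 and 330 CPM in donors and 117, 148 and 174 CPM in acceptors, a change of 0.74 ± 0.07. The members ran from Psmc3 at −0.09, not called, to Psmd11 at 1.18. Of the 16 proteasome activators and assembly factors, 5 were called higher and 3 lower, and none was stable.

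The ubiquitin side of the pathway was similar in direction. Of 43 E1 activating and E2 conjugating enzyme genes, 24 were called higher and 5 lower, the median was 0.38, and the 3 runs gave 0.32, 0.38 and 0.43. The shares were 55.8% higher and 11.6% lower, against 29.4% and 33.3% of all genes. With total counts 17 were higher (39.5%) and 13 lower (30.2%), against 17.5% and 50.2% of all genes. The median was then 0.04, and it stood 0.46 above that of all genes on both scales. The list held 12 stable higher genes, led by Ube2z and by Ube2j2, an enzyme of degradation at the endoplasmic reticulum, with 110, 124 and 146 CPM in donors and 52.0, 73.8 and 101 CPM in acceptors (0.73 ± 0.07). Ube2l6, the conjugating enzyme of the ubiquitin-like ISG15, was the list's stable lower gene, with 231, 283 and 363 CPM against 273, 487 and 582 CPM (−0.68 ± 0.09). Its change was −0.91, −0.63 and −0.37 in the 3 runs.

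Autophagy core genes, which build and close the membrane around cargo, were called higher in 24 of 45 cases and lower in 5, with a median of 0.37 and run medians of 0.43, 0.29 and 0.32. The shares were 53.3% higher and 11.1% lower, against 29.4% and 33.3% of all genes. With total counts 15 were higher (33.3%) and 16 lower (35.6%), against 17.5% and 50.2% of all genes. The median was then 0.04, and it stood 0.45 above that of all genes on both scales. Atg12 had 102, 146 and 170 CPM in donors and 53.1, 82.4 and 97.5 CPM in acceptors, and Uvrag, of the lipid kinase complex that acts in autophagosome and endosome maturation, had 83.3, 97.9 and 116 CPM against 36.8, 56.2 and 71.7 CPM. Neither overlapped between the populations, and their log2 changes were 0.84 ± 0.07 and 0.81 ± 0.07. Wdr45, which binds phosphoinositides at forming autophagosomes, was lower at −0.60 ± 0.13, and Atg16l2 at −0.45 ± 0.12.

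In the lysosome, more pump genes were called higher than lower, and more hydrolase and membrane protein genes lower than higher. Of 19 V-ATPase genes, 11 were called higher and 4 lower with a median of 0.56 and run medians of 0.18, 0.33 and 0.74. The shares were 57.9% higher and 21.1% lower, against 29.4% and 33.3% of all genes. With total counts the numbers were 10 and 7 (52.6% and 36.8%), against 17.5% and 50.2% of all genes. The V1 sector, which burns ATP in the cytosol, had 7 of 8 genes called higher and 0 lower with a median of 0.82. The V0 sector, which passes protons through the membrane, had 4 higher and 3 lower of 9. Its run medians were −0.18, 0.33 and 0.7. Of 2 accessory genes 1 was called lower, and both were below 0. Of 64 genes of lysosomal hydrolases and membrane proteins, 14 were called higher and 33 lower with a median of −0.25. That median was −0.26, −0.36 and 0.03 in the 3 runs. The shares were 21.9% higher and 51.6% lower, against 29.4% and 33.3% of all genes. With total counts 7 were higher (10.9%) and 46 lower (71.9%), against 17.5% and 50.2% of all genes.

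Some of these genes carry, near their starts, the letters CACGTG, the core of the E-box and of the CLEAR element to which TFEB, a factor that induces lysosomal genes, binds. The motif was chosen with the changes of both lists known. It was searched in RefSeq promoters of GRCm38.p6, from 250 bases before to 50 after the start; being its own reverse complement it reads alike on both strands. It was in 11.6% of 10373 tested genes with a promoter, in 4 of 13 V-ATPase genes (30.8%) and in 14 of 52 lysosomal genes (26.9%). In autophagy, ribosomal protein and proteasome genes the share was 13.5%, 10.3% and 3.7%. A further motif, TGACNNNGC, the core of the antioxidant element, was searched on both strands and was in 22.2% of proteasome, 23.1% of lysosomal, 15.4% of V-ATPase and 16.9% of all tested genes with a promoter. The 4 pump genes with CACGTG, Atp6v1a, Atp6v0b, Atp6v0d1 and Atp6v0e, were all called higher (median 0.60). Of the 14 lysosomal genes with CACGTG, 3 were higher, 8 lower and 3 not called (median −0.29). Genes with these letters thus lay on both sides of 0. The stable genes of each side with the smallest adjusted p are shown 5′ to 3′ along the gene, with the motif in capitals, to let the windows be compared: Atp6v0e (chr17:26676146-26676445, plus strand) and Atp6v1a (chr16:44139210-44139509, minus strand) were higher in donors, and Glb1 (chr9:114400828-114401127, plus strand) and Ctsa (chr2:164833523-164833822, plus strand) were lower.
Atp6v0e: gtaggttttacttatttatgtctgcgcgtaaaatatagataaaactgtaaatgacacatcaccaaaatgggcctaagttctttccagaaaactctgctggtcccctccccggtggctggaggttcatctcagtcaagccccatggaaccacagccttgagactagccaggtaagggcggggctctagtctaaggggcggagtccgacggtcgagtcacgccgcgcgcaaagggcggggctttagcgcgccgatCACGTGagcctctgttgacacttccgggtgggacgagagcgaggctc
Atp6v1a: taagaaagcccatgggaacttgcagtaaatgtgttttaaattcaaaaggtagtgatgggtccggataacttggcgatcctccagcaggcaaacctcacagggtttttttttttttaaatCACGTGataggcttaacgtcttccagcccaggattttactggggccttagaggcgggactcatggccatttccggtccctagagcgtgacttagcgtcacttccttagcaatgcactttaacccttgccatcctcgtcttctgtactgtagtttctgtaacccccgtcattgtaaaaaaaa
Glb1: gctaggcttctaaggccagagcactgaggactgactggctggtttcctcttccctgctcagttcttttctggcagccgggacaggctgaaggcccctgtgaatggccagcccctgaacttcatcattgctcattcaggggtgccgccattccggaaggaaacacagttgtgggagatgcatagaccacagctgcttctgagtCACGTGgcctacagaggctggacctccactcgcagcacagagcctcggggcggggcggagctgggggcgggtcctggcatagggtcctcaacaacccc
Ctsa: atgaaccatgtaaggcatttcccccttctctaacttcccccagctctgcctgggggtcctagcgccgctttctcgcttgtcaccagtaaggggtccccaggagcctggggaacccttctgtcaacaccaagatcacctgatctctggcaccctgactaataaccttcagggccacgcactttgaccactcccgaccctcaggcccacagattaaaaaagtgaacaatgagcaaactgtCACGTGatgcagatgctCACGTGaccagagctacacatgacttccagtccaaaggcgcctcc
A match describes letters only and shows no binding.

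Atp6v0e, a small V0 subunit, had 495, 586 and 865 CPM in donors and 243, 364 and 547 CPM in acceptors, so only the extremes overlapped. Its log2 change was 0.65 ± 0.09 (edgeR adjusted p = 4.77e-08) with run values of 0.72, 0.34 and 1.00. Atp6v1a, the catalytic subunit of V1, had 760, 1200 and 1410 CPM in donors and 617, 802 and 921 CPM in acceptors, a change of 0.56 ± 0.08. Atp6v0a1 and the accessory Atp6ap1 were the stable lower members at −0.58 ± 0.12 and −0.52 ± 0.10. Atp6v0a1, a membrane subunit, was not alike in all runs, with −0.61, 0.09 and −1.13.

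Glb1 (gene at chr9:114401076-114474898) had 40.4, 49.1 and 64.2 CPM in donors and 60.8, 84.3 and 112 CPM in acceptors, with a median of 92.4 CPM in the control. Only the edges of the populations overlapped, and the change was −0.78 ± 0.07 in log2 units with −0.76, −0.83 and −0.66 in the runs. Ctsa, the protective protein that stabilises beta-galactosidase in the lysosome, had 575, 769 and 852 CPM in donors and 857, 1000 and 1170 CPM in acceptors. Its highest donor library lay just below its lowest acceptor library, at a change of −0.42 ± 0.06. Ppt2, a lysosomal thioesterase, was lower at −0.81 ± 0.09, again with no overlap. Against them, the sialidase gene Neu1, whose product works in a complex with those of Ctsa and Glb1, had 145, 173 and 204 CPM in donors and 58.5, 112 and 126 CPM in acceptors, a change of 0.68 ± 0.07. Npc1, which exports cholesterol from the lysosome, was also higher, at 0.62 ± 0.09.

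Of 45 genes linked to Parkinson's disease, 15 were called higher (33.3%) and 12 lower (26.7%), near the 29.4% and 33.3% of all genes, and the median was −0.09, where that of all genes was −0.08. With total counts 7 were higher and 23 lower. Rab10, a Rab protein phosphorylated by LRRK2, had 430, 449 and 545 CPM in donors and 190, 273 and 349 CPM in acceptors, with no overlap and a change of 0.76 ± 0.08 (edgeR adjusted p = 8.47e-11). Atp13a2, a lysosomal polyamine transporter mutated in a juvenile parkinsonism, had 91.2, 123 and 176 CPM in donors and 166, 210 and 415 CPM in acceptors, a change of −0.83 ± 0.08. Scarb2, the receptor that carries glucocerebrosidase to the lysosome, had 80.1, 113 and 142 CPM against 138, 172 and 212 CPM, a change of −0.64 ± 0.07. Setd1a, a histone methyltransferase, was higher at 0.62 ± 0.07.

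Among membrane traffic genes, higher calls outnumbered lower ones with TMM in each list given here and in the next paragraph. Of all genes 29.4% were higher and 33.3% lower. Of 40 SNAREs and fusion factors, 25 were called higher and 6 lower (median 0.43; runs 0.37, 0.49 and 0.63), of 31 coat genes 21 and 1 (median 0.40; runs 0.62, 0.39 and 0.42), and of 42 Rab genes 20 and 5 (median 0.35; runs 0.24, 0.20 and 0.52). With total counts the numbers of these lists became 17 and 12, 9 and 7, and 12 and 18, under a scaling that moved the median of all genes by −0.33. The lists then had 42.5%, 29% and 28.6% higher, and 30%, 22.6% and 42.9% lower. Of all genes 17.5% were higher and 50.2% lower on that scale. Relative to the median of all genes the Rab median stood at 0.43 on both scales. The COPII coat, which carries cargo out of the endoplasmic reticulum, had 10 of 11 genes called higher and 0 lower, and the COPI coat 5 of 9 and 0. With total counts the COPII coat had 4 higher and 0 lower, and the COPI coat 1 higher and 3 lower. Ykt6, a SNARE of several fusion steps including that of autophagosomes with lysosomes, had 209, 257 and 322 CPM in donors and 120, 153 and 189 CPM in acceptors, with no overlap (0.74 ± 0.07). Arf1, the GTPase that recruits COPI, had 369, 452 and 535 CPM against 130, 290 and 326 CPM (0.67 ± 0.08).

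Napa, the alpha-SNAP that helps take SNARE complexes apart, was higher at 0.58 ± 0.06 and Rab35, of endosomal recycling, at 0.76 ± 0.07. Vamp8, a SNARE of late endosomes, was lower at −0.50 ± 0.10, but run 3 gave 0.13 where runs 1 and 2 gave −0.74 and −0.77. Of 31 ESCRT genes, which sort ubiquitinated cargo, 14 were higher (45.2%) and 4 lower (12.9%). Chmp2a of ESCRT-III had 129, 153 and 181 CPM in donors and 66.1, 92.3 and 107 CPM in acceptors, with no overlap (0.75 ± 0.07), while Vps25 of ESCRT-II was lower (−0.46 ± 0.10). With total counts ESCRT gave 9 higher and 14 lower, and its median stood 0.24 above that of all genes, against 0.25 with TMM. Retromer, sorting nexins and tethers (21 higher, 13 lower of 53) and the exocyst with Ral proteins (6 and 4 of 17) had medians of 0.15 and −0.08, or 0.24 and 0.01 above the median of all genes. With total counts they gave 10 higher (18.9%) and 24 lower (45.3%), and 4 (23.5%) and 11 (64.7%), at 0.25 and 0.02 above it. Of all genes 17.5% were higher and 50.2% lower on that scale. With TMM the shares of these lists were 39.6% and 24.5%, and 35.3% and 23.5%, against 29.4% and 33.3% of all genes. Tnfaip2, known as M-Sec and linked to membrane nanotubes, had 166, 251 and 386 CPM in donors and 109, 156 and 218 CPM in acceptors (0.75 ± 0.11, with 0.27 in run 2 and 1.28 in run 3).

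**Figure D3:**
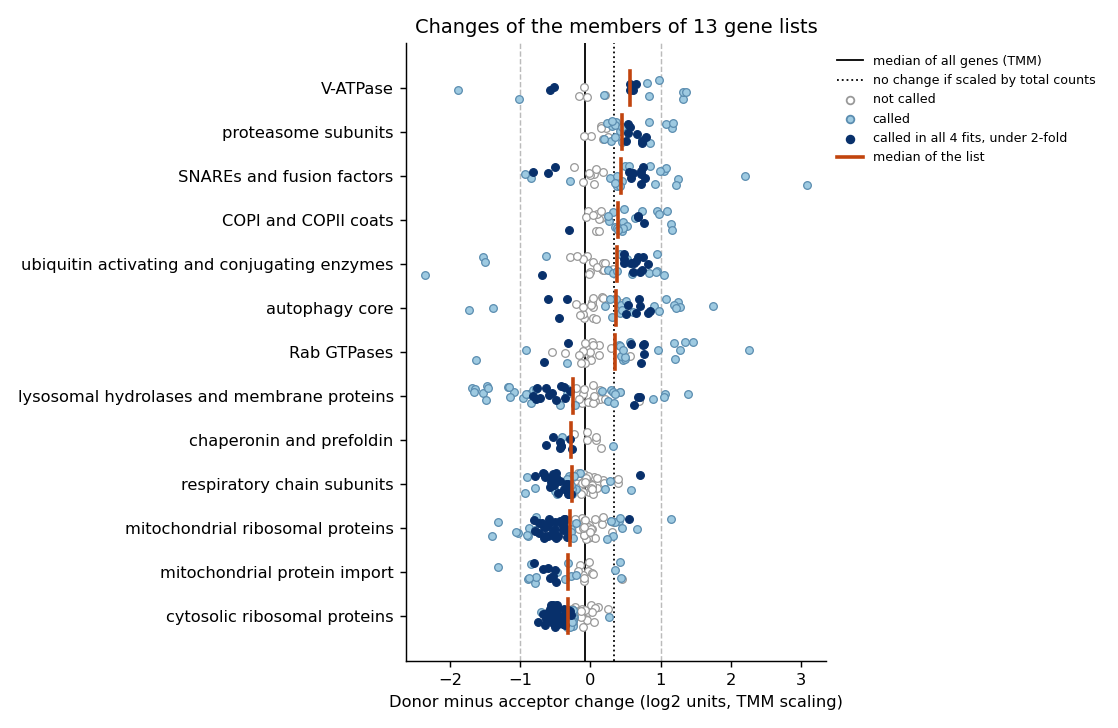
Donor minus acceptor change in log2 units with TMM scaling (horizontal axis) of every tested member of 13 gene lists (rows). Dark points are stable genes, light points other called genes, open points genes not called, and red bars list medians. The solid line is the median of all genes (−0.08), and points left of the dotted line would be below 0 with total counts.

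Lists of protein synthesis and folding differed in the share called lower, which was 33.3% over all genes. It was 72.2% in cytosolic ribosomal protein genes, 56.2% in chaperonin and prefoldin genes and 52.2% in cytosolic tRNA synthetases. In translation factors it was 39.6% and in genes of the endoplasmic reticulum 29.8%. Of 79 cytosolic ribosomal protein genes, 57 were called lower and 1 higher with a median of −0.33, and 37 were stable. The members ran from Rpsa at −0.74 to Rpl24 at 0.26. The run medians were −0.09, −0.48 and −0.36. With total counts 75 were lower (94.9%, against 50.2% of all genes) and 0 higher. Rpsa (chr9:120127689-120132369, plus strand), a small-subunit protein also known as the laminin receptor, had 250, 305 and 434 CPM in donors and 416, 539 and 707 CPM in acceptors (−0.74 ± 0.09, edgeR adjusted p = 2.22e-09). Rpl6 had 388, 429 and 565 CPM against 492, 630 and 709 CPM (−0.48 ± 0.06). Ribosomal protein genes have many processed pseudogenes, and how shared reads were counted was not stated in the labels, so their levels are uncertain.

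The chaperonin ring, which folds actin and tubulin, had 6 of 8 genes called lower, all 6 stable, and the other 2 were also below 0, with a median of −0.42. Of 6 prefoldin genes 3 were lower and 3 not called, with a median of −0.10. Cct2 had 47.7, 64.1 and 78.2 CPM in donors and 34.5, 102 and 123 CPM in acceptors (−0.63 ± 0.09), and Cct5 50.1, 78.5 and 93.2 CPM against 83.8, 106 and 193 CPM (−0.53 ± 0.09). The low acceptor values of Cct2 reach below all donor values. The change of Cct2 was −0.33, −0.86 and −0.57 in runs 1, 2 and 3. Of 13 subunits of eIF3, a scaffold of translation initiation, 9 were lower and 0 higher (median −0.34), among them Eif3l at −0.72 ± 0.08. Translation factors as a list of 53 were mixed, with 11 higher and 21 lower. Eef1g, of the elongation complex, had 95.8, 116 and 168 CPM in donors and 147, 185 and 217 CPM in acceptors (−0.62 ± 0.07).

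Cytosolic tRNA synthetases were lower in 12 of 23 cases and higher in 5. The stable higher ones included Aars, which charges alanine, with 382, 463 and 583 CPM in donors and 204, 273 and 349 CPM in acceptors and no overlap (0.76 ± 0.08), and Rars for arginine (0.79 ± 0.10). Mars1 and Farsb, for methionine and phenylalanine, were lower at −0.56 ± 0.09 and −0.62 ± 0.11. In the endoplasmic reticulum 14 of 47 genes were higher and 14 lower, 29.8% each way, near the 29.4% and 33.3% of all genes (4 and 26 with total counts). The oligosaccharyltransferase, which attaches N-glycans, had 6 of 10 genes lower and 0 higher, with Rpn2 at 77.7, 91.4 and 116 CPM against 109, 152 and 241 CPM (−0.72 ± 0.08). Uggt1, which tests the folding of glycoproteins, was lower at −0.81 ± 0.09, and P4hb, a disulfide isomerase, was higher at 0.62 ± 0.09.

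Nuclear genes of mitochondrial machinery were lower by similar amounts. Of 78 mitochondrial ribosomal protein genes 44 were called lower and 10 higher (median −0.29; runs −0.29, −0.23 and −0.27). Of 76 respiratory chain genes 43 were lower and 4 higher (median −0.26; runs −0.15, −0.43 and −0.14). Of 31 protein import genes 18 were lower and 3 higher (median −0.32; runs −0.14, −0.40 and −0.33). The shares called lower were 56.4%, 56.6% and 58.1%, against 33.3% of all genes. With total counts 62, 65 and 27 genes of these lists were lower (79.5%, 85.5% and 87.1%), against 50.2% of all genes. Against a median of −0.08 over all genes the list medians with TMM were shifted by −0.20, −0.18 and −0.23 log2 units. Complex I had 22 of 37 genes lower and 2 higher, ATP synthase 11 of 15 and 0, and complex IV only 2 of 10 and 1.

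Mrps24 of the small mitochondrial subunit had 22.7, 29.6 and 39 CPM in donors and 39.2, 48.0 and 76.5 CPM in acceptors, with no overlap (−0.73 ± 0.07, edgeR adjusted p = 9.31e-11). Sdha, the catalytic subunit of complex II, had 64.4, 87.2 and 120 CPM against 105, 126 and 147 CPM (−0.57 ± 0.07). Ndufs4 of complex I went the other way, with 67.0, 90.3 and 124 CPM against 36.9, 55.6 and 86.0 CPM (0.70 ± 0.09). Among import genes Timm10, a chaperone of the intermembrane space, was lower at −0.81 ± 0.09 and Tomm6 of the outer membrane pore at −0.51 ± 0.07. In the citric acid cycle and pyruvate oxidation 15 of 32 genes were lower (46.9%) and 6 higher (18.8%). Suclg1 was lower at −0.62 ± 0.08, as was Idh3g at −0.65 ± 0.09, and Pdk3, a kinase that inhibits pyruvate dehydrogenase, was higher at 0.71 ± 0.11. Of 34 peroxisome genes 15 were lower (44.1%) and 8 higher (23.5%), against 33.3% and 29.4% of all genes. With total counts 20 were lower (58.8%) and 0 higher, against 50.2% and 17.5% of all genes.

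**Figure D4:**
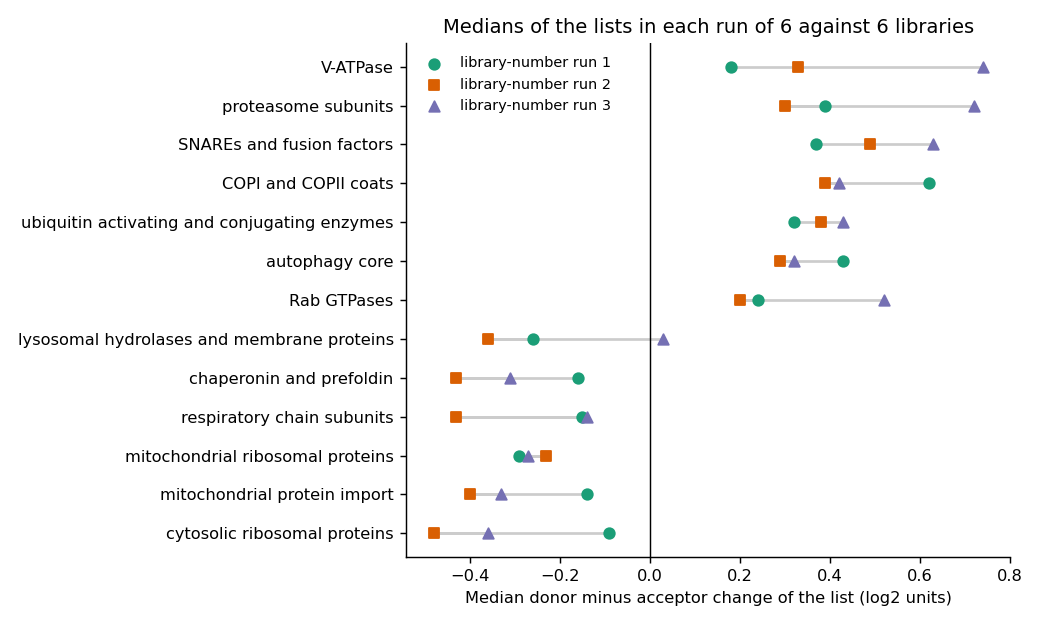
Median donor minus acceptor change in log2 units (horizontal axis) of the same 13 lists (rows) in each library-number run, 6 against 6 libraries scaled by TMM within the run. All 7 upper lists lie above 0 in each run, the 5 lowest lie below 0 in each run, and the lysosomal list runs from −0.36 to 0.03.

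Lists of RNA and chromatin machinery are read against the 29.4% higher and 33.3% lower of all genes. Of 12 RNA exosome genes, which degrade RNA from its 3′ end, 9 were lower and 1 higher with a median of −0.57. Exosc8 had 16.7, 24.7 and 35.0 CPM in donors and 28.9, 37.7 and 53.2 CPM in acceptors (−0.66 ± 0.10). The 11 CCR4-NOT genes, which remove poly(A) tails, gave 5 higher and 2 lower, and 2 and 5 with total counts. Of 59 core spliceosome genes 21 were lower (35.6%) and 8 higher (13.6%), with Sf3b3 at 19, 24.6 and 37.0 CPM against 37.6, 42.9 and 59.1 CPM (−0.78 ± 0.08) and Srsf2, which promotes exon inclusion, higher at 0.70 ± 0.09. RNA polymerase II and Mediator genes numbered 19 higher (35.8%) and 14 lower (26.4%) of 53, and 13 and 25 with total counts, with Polr2c higher at 0.63 ± 0.07 and Med12 lower at −0.58 ± 0.09. Nuclear pore and transport genes numbered 11 higher (20%) and 20 lower (36.4%) of 55, and those of SWI/SNF and histone deacetylase complexes 8 and 19 of 45. Gatad2a of the NuRD complex was higher at 0.84 ± 0.07 and Mbd3, of the same complex, lower at −0.67 ± 0.08.

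Lists of the cytoskeleton and of membrane lipids held a pair of related genes called in opposite directions. Coro1b and Coro1a encode coronins, which bind actin filaments and the Arp2/3 complex. Coro1b had 572, 693 and 949 CPM in donors and 330, 384 and 666 CPM in acceptors (0.81 ± 0.08), whereas Coro1a had 61.5, 85.5 and 106 CPM against 115, 148 and 217 CPM with no overlap (−0.81 ± 0.08). The list of Arp2/3, WAVE and capping genes numbered 16 higher (40%) and 10 lower (25%) of 40 with TMM. Of all genes 29.4% were higher and 33.3% lower with TMM, and 17.5% and 50.2% with total counts. With total counts the Arp2/3 list had 6 higher (15%) and 17 lower (42.5%). Of 47 tubulin and motor genes 22 were higher and 7 lower with a median of 0.19, and Dync1i2, an intermediate chain of dynein, had 652, 813 and 1120 CPM in donors and 462, 534 and 825 CPM in acceptors (0.59 ± 0.07). The shares of the tubulin and motor list were 46.8% higher and 14.9% lower. With total counts that list had 7 higher (14.9%) and 19 lower (40.4%). Of 42 phosphoinositide kinase and phosphatase genes 16 were higher (38.1%) and 14 lower (33.3%), near the shares of all genes. With total counts 10 were higher (23.8%) and 23 lower (54.8%). The phosphatase gene Mtmr3 had 45, 60.7 and 68.0 CPM in donors against 25, 32.3 and 45 CPM in acceptors (0.81 ± 0.07).

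Genes often used as references for quantitative PCR were not constant between the populations. Of 20, 7 were called higher (35%) and 11 lower (55%), against 29.4% and 33.3% of all genes, and Tbp and B2m were not called. With total counts 5 were higher (25%) and 12 lower (60%), against 17.5% and 50.2% of all genes. Actb, beta-actin, had 15500, 20000 and 23400 CPM in donors and 11400, 13800 and 31000 CPM in acceptors. Its log2 change was 0.40 ± 0.09 with TMM and 0.08 with total counts, where the edgeR adjusted p was 0.385, and run 1 gave 0.01. Gapdh, a glycolytic enzyme, had 441, 554 and 772 CPM against 161, 256 and 366 CPM with no overlap (1.04 ± 0.10), and the glycolytic Pgk1 and Pgam1 were higher at 1.19 ± 0.11 and 1.55 ± 0.10. Hprt, of purine salvage, had 24.1, 31.3 and 47.2 CPM against 24.4, 62.5 and 78.3 CPM (−0.95 ± 0.11). Ywhaz, a 14-3-3 protein, had 342, 399 and 475 CPM against 291, 353 and 393 CPM, and was higher with TMM (0.19 ± 0.05, edgeR adjusted p = 0.00235) but lower with total counts (−0.14, edgeR adjusted p = 0.0213).

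Polr2a, the largest subunit of RNA polymerase II, was higher at 0.61 ± 0.09. Lower were Ppia (−0.62 ± 0.10), Gusb (−0.71 ± 0.11, with −0.08 in run 1), Tfrc (−0.84 ± 0.13), Eef2 (−0.59 ± 0.09), Rplp0 (−0.28 ± 0.08), Rpl13a (−0.27 ± 0.10) and Ppib (−0.25 ± 0.06). The call of Rpl13a was lost in limma with the estimated correlation, at an adjusted p of 0.134. Likewise Eef1a1 was called lower at −0.51 ± 0.14 with 0.21 in run 1, and its limma adjusted p with the estimated correlation was 0.0631. Tbp, at 4.18, 6.83 and 12.3 CPM against 3.54, 5.91 and 8.96 CPM, had a change of 0.17 with a 95% interval of −0.11 to 0.45. Gapdh, Ppia, Eef1a1, Pgk1, Pgam1 and Actb have close copies or pseudogenes, so their levels are uncertain too.

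A difference that varied with time was called for few genes. A test of the 5 time terms called 2 genes (0.0154% of those tested), Cytip and Vegfa, and 195 genes had an unadjusted p under 0.05. For Cytip, an adaptor that dampens leukocyte adhesion, the pooled value of −0.63 ± 0.35 was not called because its difference changed sign with time, from 1.63 log2 units at 0 min to −2.78 at 300 min.

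Markers of cell types moved with the comparison as well. Microglia markers, 24 of 25 measured, summed to 7700 to 11700 CPM in donors and 15700 to 45400 CPM in acceptors, with 18 called lower and 4 higher. Csf1r had 339 to 677 CPM in donors and 2060 to 8700 CPM in acceptors, and C1qa 707 to 1530 CPM and 2130 to 13800 CPM. The microglia markers Cd68 and Spi1 had similar ranges in the populations. Cd68 had 1070 to 1700 CPM in donors and 1060 to 1710 CPM in acceptors, and Spi1 296 to 492 CPM and 272 to 495 CPM. Irf8 lay higher in donors, at 268 to 599 CPM against 178 to 310 CPM in acceptors. So did Cd33, at 11.9 to 38.5 CPM against 1.47 to 10.1 CPM. In bulk RNA, fewer cells of a type and less RNA per cell cannot be told apart. Astrocyte markers (13 of 13 measured) summed to 8.77 to 33.1 CPM and 23 to 64.9 CPM, oligodendrocyte markers (13 of 13) to 153 to 328 CPM and 185 to 363 CPM, and neuron markers (12 of 12) to 9.18 to 26.0 CPM and 10.1 to 46.0 CPM. Under 2 CPM in all 36 libraries were 5 of the 13 astrocyte markers, among them Gfap and Aqp4, 6 of the 12 neuron markers, among them Snap25, and 2 of the 13 oligodendrocyte markers. Others were present and differed: the astrocyte marker Ndrg2 had 0.201 to 6.90 CPM in donors and 6.38 to 21.8 CPM in acceptors, and Mbp, of myelin, 22.4 to 67.6 CPM and 75.2 to 116 CPM. Cnp, also of oligodendrocytes, had 108 to 209 CPM and 59.6 to 228 CPM. Fibroblast and vascular markers (10 of 13) summed to 86.0 to 195 CPM in donors and 26.9 to 80.1 CPM in acceptors, and Col1a1 lay between 0 and 1.86 CPM. Kdr, a receptor of vascular growth factor, had 49.2 to 143 CPM in donors and 21.4 to 70.4 CPM in acceptors. Vwf had 12.7 to 37.9 CPM and 2.57 to 5.90 CPM, Pecam1 3.50 to 13 CPM and 0 to 2.23 CPM, and Dcn 0.834 to 15.5 CPM and 0 to 0.930 CPM. Of the 10 measured, 5 lay under 2 CPM in all 36 libraries, among them Col1a1, Cdh5 and Pdgfrb. Cdh5 had 0 to 0.649 CPM in donors and 0 to 0.859 CPM in acceptors, and Acta2 1.23 to 3.8 CPM and 0.523 to 3.79 CPM. Markers of other immune cells (7 of 13) summed to 14.4 to 93.8 CPM and 0.260 to 5.63 CPM, in donors nearly all of it S100a8, with Cd3d at most 0.687 CPM. The part of any of these in the small changes was not tested.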

How the data were processed

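QuantSeq 3′ mRNA libraries were read once over 100 bases, per the labels' protocols. The deposited counts are raw reads by gene symbol, and a second deposited table, of normalized signal values, was not used here. Per the submitters' processing notes, STAR, Partek, DESeq2 and mm10 were used, with no roles named. Whether strand was used, duplicates removed or shared reads divided was not stated there. All columns were mapped to samples by their titles.

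The analysis used edgeR 4.0.16 under R 4.3.3. Its default filter over the 12 groups left 12947 genes with 99.97% of the reads. TMM factors were used, and a quasi-likelihood model with time as a factor plus population was fitted to the 36 libraries (biological coefficient of variation 0.367). Single times came from a model with 1 mean per group, and variation over time from an F test of 5 interaction terms. The standard error is the log2 change divided by the square root of the F statistic. With 3 against 3 libraries the smallest p of an exact permutation test is 0.1. CPM used TMM factors over all 39 libraries. DESeq2 1.42.0, limma 3.58.1 (voom, population by run as block), other scalings and filters, a replicate block, runs and left-out libraries were alternatives. The model was tested on simulated counts. Depth limits precision most for genes of low level.

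Members and lists were chosen with earlier results of these data known. Named genes were the 10 higher and 10 lower stable genes with the smallest adjusted p, up to 2 per list and direction, the reference genes, the 5 stable changes nearest 0, 5 per direction called at no single time, and Lcn2 and Cx3cr1. Ctsa was named after its value was seen, as the second lower gene with the motif, as were the genes at the ends of lists, the motif members and Cytip and Vegfa. Positions are from GENCODE M21 (GRCm38), which held 97.3% of the tested symbols, and promoters from RefSeq. Some genes that this rule names are not reported here.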

Additional observations from a re-analysis of the deposited data

Results flagged for a closer look

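The donor minus acceptor difference varied with time for 2 genes. Cytip, whose product binds cytohesins and dampens integrin adhesion, had an interaction adjusted p of 2.51e-06 in edgeR's quasi-likelihood F test over 12947 genes. Its level in donors was 22.5 ± 0.578 CPM (SD, n = 3) at 0 min and 9.10 ± 2.04 CPM at 300 min. In acceptors it was 7.32 ± 3.74 CPM at 0 min, 48.7 ± 9.13 CPM at 60 min, 85.0 ± 23 CPM at 150 min and 62.5 ± 13 CPM at 300 min. The log2 difference was 1.63, 1.31, −0.08, −1.15, −2.62 and −2.78 at the 6 successive times, so donors were above acceptors early and below them late. The gene was called in 48 of 48 alternatives, with adjusted p between 2.28e-20 and 0.0248.

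Vegfa, a growth factor of blood vessels, had an interaction adjusted p of 0.035 in the same edgeR test. Donors had 25.4 ± 11.4 CPM at 0 min, 34.1 ± 13.2 CPM at 30 min and 17.6 ± 6.29 CPM at 300 min, and acceptors had 4.73 ± 1.28 CPM at 0 min, 24.9 ± 7.98 CPM at 60 min and 12.9 ± 3 CPM at 300 min. The log2 difference was 2.43, 1.99, 1.62, −0.53, −0.24 and 0.45 at the 6 times. Vegfa was called in 19 of 48 alternatives, with adjusted p between 1.11e-05 and 1.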

How the results depend on the processing

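Calls under 2-fold that were higher in donors fell in number to 1344 with total counts, 1281 with total counts without the ribosomal RNA precursor Rn45s, 1407 with counts summed per run, 1156 within library-number run 1 and 1352 when the limit was 1.5-fold. Lower calls numbered 1607 with limma and an estimated correlation, 1310 with summed counts, 1122, 1389 and 1510 within runs 1, 2 and 3, and 1284 under 1.5-fold. Of all genes, 4878 were called within run 1. Limma left 873 small calls that no single time called. With fewer libraries or sums, fewer genes pass. For the other changes the cause was not tested.

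Genes whose difference varied with time numbered 5 with DESeq2 and 1 with total counts, with total counts without Rn45s, without the 0 min libraries and without each run in turn. With 1 library left out they numbered 1 to 2, 1 in 23 of 36 cases. Leaving out 1 library gave 7932 to 8357 calls, 2312 to 2516 small higher, 2347 to 2508 small lower and 1986 to 2476 called at no single time.

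Sign changes of named genes included Ywhaz with total counts (−0.14) and without Rn45s (−0.16), Eef1a1 within run 1 (0.21), Atp6v0a1 and B2m within run 2 (0.09 and −0.32) and Vamp8 within run 3 (0.13). Tbp (−0.16) and B2m (−0.04) with total counts and Cytip within run 2 (0.08), none called in the pooled fit, did so too. With the library-number run as a replicate block, 8249 genes were called, 2424 small higher and 2538 small lower, 2005 called at no single time, and 3 varied with time. Deviations of donor and acceptor libraries of a run and time correlated between −0.301 and 0.18, over 0.1 in 8 of 18 pairs. Averaged over the 6 times, the deviations correlated at 0.0832, 0.0705 and 0.339 in runs 1, 2 and 3, so only run 3 was over 0.1. The runs are thus not shown to pair the samples. The 3237 least abundant genes, under 2.49 CPM, had a median standard error of 0.56 log2 units, so changes under 2-fold were rarely detectable there.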
